A study of Mus musculus with 48 samples.

Results

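The genes described here are the lecticans aggrecan (Acan), brevican (Bcan), neurocan (Ncan) and versican (Vcan), the hyaluronan and proteoglycan link proteins Hapln1, Hapln2, Hapln3 and Hapln4, and the tenascins Tnc and Tnr. They are 10 of the 24421 gene symbols in each deposited table of RNA-seq levels from mouse astrocytes. They were chosen by name as a gene family with earlier results of these data known, the P1 to P14 difference of Hapln1 in olfactory bulb among them, so their levels and differences over age are given as a description and support nothing further. The genotype comparison at P28 was tested.

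The series held 48 libraries in 15 groups. Astrocytes labelled as coming from cortex, hippocampus or olfactory bulb were sampled at postnatal day 1 (P1), P7 and P14, with 3 libraries at each age and region and 4 for cortex at P14; no genotype or treatment is listed for them. At P28 the groups were Gabbr1 control and Gabbr1 cKO (conditional knockout of the GABA-B receptor subunit 1), with 4 control and 4 cKO libraries from cortex, 2 and 4 from hippocampus, and 3 and 3 from olfactory bulb. Tamoxifen is listed for every P28 library of hippocampus and olfactory bulb, controls included, and for 3 of the 8 cortex P28 libraries (controls 3 and 4 and cKO 4), whose titles also name the group; the other 5 list only region, genotype and age. The Cre line, the alleles, the strain and the way astrocytes were separated from the dissociated tissue are not given in the sources used here. The labels do not say whether libraries of a group came from separate animals, so p-values measure the spread between these libraries, which may be technical.

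Levels are normalized counts, whole reads divided by a size factor for each library within its table. Since each table was scaled on its own, ages were compared within a region, genotypes within a P28 table, and nothing between tables. The number of reads behind a library ran from 1773226 to 15008466. It differed with age: 5098757 to 8986015 at P1 and 2539583 to 4248087 at P14 in hippocampus. The olfactory bulb libraries had 5473837 to 9062118 at P1 and 1773226 to 2669394 at P14. In cortex the lowest number, 4828515, was at P7. Each age of a region also had its own run of library numbers, which cannot be told apart from age. The part of depth in the levels was not tested. Rn45s, a ribosomal RNA precursor, took 13.7% to 38.0% of the level of all libraries but 2: it took 0.594% in hippocampus cKO 2 and 0.476% in olfactory bulb control 2; genotype differences in these 2 tables are given with and without them. The summed level of 7 astrocyte markers was above that of 7 neuronal markers in every library, least so in the young olfactory bulb. In cortex the astrocyte sum was 18136 to 24217 at P1 and 470060 to 531240 at P14, while the neuronal sum was 3389 to 4109 and then 199 to 421. In hippocampus the astrocyte sum was 12103 to 13880 and then 410880 to 445590, and the neuronal sum 1679 to 1773 and then 234 to 322. In olfactory bulb the astrocyte sum was 4588 to 6592 at P1, 10068 to 18439 at P7 and 117800 to 134610 at P14, and the neuronal sum 2836 to 3479, 3155 to 5258 and 419 to 970.5 at these ages. The part of these sums in the age differences below was not tested. The 5 fibroblast and meningeal markers summed to 20.2 to 976 over the libraries from P1 to P14. In a bulk library a smaller number of cells of a type and less RNA per cell cannot be told apart, which holds for every level below.

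Lecticans are chondroitin sulfate proteoglycans whose amino-terminal domain holds hyaluronan and whose carboxy-terminal domain is held by tenascins. Link proteins fasten a lectican to the hyaluronan chain, and the trimeric tenascin-R crosslinks several lecticans, so that the 3 families together form the brain's perisynaptic matrix and perineuronal nets. In textbook accounts versican, neurocan and tenascin-C belong to the juvenile matrix, and brevican, aggrecan and tenascin-R to the mature one.

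Upstream sequences of 3 members are shown because they stand for the opposite courses described below: Vcan and Tnc, which were lower at P14 than at P1 in all 3 regions, and Bcan, which was higher. Each is the 250 bases before the RefSeq transcription start (RefSeq, GRCm38.p6), read 5′ to 3′ on the gene's strand, which is the minus strand for all 3. Capitals mark matches on either strand to GGGCGG (the GC box) or TATAAA (the TATA box).
Vcan, chr13:89742513-89742762: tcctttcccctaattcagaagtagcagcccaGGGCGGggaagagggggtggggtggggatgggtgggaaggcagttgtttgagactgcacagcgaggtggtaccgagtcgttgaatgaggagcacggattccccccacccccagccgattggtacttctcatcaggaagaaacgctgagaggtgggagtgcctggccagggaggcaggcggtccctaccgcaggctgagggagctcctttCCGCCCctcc
Tnc, chr4:64047016-64047265: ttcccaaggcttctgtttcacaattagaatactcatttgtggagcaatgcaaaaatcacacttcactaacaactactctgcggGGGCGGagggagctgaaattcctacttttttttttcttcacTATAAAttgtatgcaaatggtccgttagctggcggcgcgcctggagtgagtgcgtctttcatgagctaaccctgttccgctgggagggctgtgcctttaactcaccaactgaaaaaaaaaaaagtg
Bcan, chr3:88000357-88000606: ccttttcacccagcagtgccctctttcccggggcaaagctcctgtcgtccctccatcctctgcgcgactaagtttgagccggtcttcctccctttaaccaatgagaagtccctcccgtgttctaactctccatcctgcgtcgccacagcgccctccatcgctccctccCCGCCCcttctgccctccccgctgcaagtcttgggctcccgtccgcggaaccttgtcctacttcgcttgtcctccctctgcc
Entries were found for 9 of the 10 members; Hapln4 had none, and the Hapln1 window overlaps an exon of GENCODE M21 and is not printed. The Vcan window held 2 GC boxes, and the Tnc and Bcan windows 1 each, as did 32.7% of all 32851 windows of this length at least once. The Tnc window held 1 TATAAA, 126 bases before the start, a motif found in 12.4% of all windows. GC content was 62.4% for Vcan and 62.0% for Bcan against 44.8% for Tnc, with a median of 52.4% over all windows. TGACTCA (the AP-1 element), TTGGCA (an NFI half-site) and ACAAAG (a SOX element) were also searched on both strands. None of these 3 occurred in the printed windows, against 4.46%, 12.3% and 16.5% of all windows. No match of 1 motif overlapped a match of another in these windows. A match is a description of letters, not a binding site.

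Hapln1 had the widest course of the family. Its product, link protein 1, stabilizes the bond between lecticans and hyaluronan. The 3 cortex libraries at P1 read 150, 129 and 142.9 normalized counts, those at P7 1428, 1720 and 1583, and the 4 at P14 3335, 3631, 3342 and 3481. In hippocampus the values were 176, 53.9 and 121 at P1, 2313, 1722 and 1860 at P7, and 5309, 5957 and 5495 at P14. In olfactory bulb they were 2.51, 7.05 and 9.93 at P1, 161.6, 192 and 26.1 at P7, and 2292, 2294 and 2123 at P14. In each region every library of a later age lay above every library of an earlier one. The P14 minus P1 difference of log2(value + 1) was 4.61 (SE 0.09) in cortex, 5.72 (SE 0.32) in hippocampus and 8.37 (SE 0.64) in olfactory bulb. The olfactory bulb starts from 7 to 18 reads per library, so the size of that difference leans on few reads. Of the log2 difference, 75.5% had come by P7 in cortex and 73.5% in hippocampus, against 45.5% in olfactory bulb.

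The other link proteins were low in every developmental library. Hapln2, known from the nodes of Ranvier of myelinated axons, had 0 to 5 reads in any library from P1 to P14, about the detection floor of 3 reads. The summed level of 7 mature oligodendrocyte markers in cortex was 334 to 381 at P1 and 15201 to 26012 at P14. In hippocampus that sum was 72.3 to 91.3 and then 1603 to 2310, and in olfactory bulb 98.7 to 186 and then 1919 to 2234. The part of these cells in the Hapln2 level was not tested. Hapln3 read 10.9 to 27.8 normalized counts in cortex, from 18 to 97 reads, with overlapping ages, and Hapln4 0 to 16.2, from 0 to 37 reads. In hippocampus Hapln4 stood at 8.19, 8.02 and 12.9 at P1 and at 7.85, 16.9 and 12.3 at P7, with overlap. At P14 it stood at 0, 0 and 1.79, from at most 1 read. Neither Hapln2 nor Hapln4 reached the mean of 10 asked for a fit in any developmental table. Per kilobase of exon, Hapln1 made up 77.3% ± 6.80 (SD, n = 3) of the summed link protein level in cortex at P1 and 98.97% ± 0.51 (n = 4) at P14. In olfactory bulb it made up 33.8% ± 3.75 (n = 3) at P1 and 99.7% ± 0.05 (n = 3) at P14. Hapln1 was thus a minority of a very low total in the P1 olfactory bulb, where Hapln4, with 10 to 16 reads, held 50.7% ± 11.7.

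**Figure D1:**
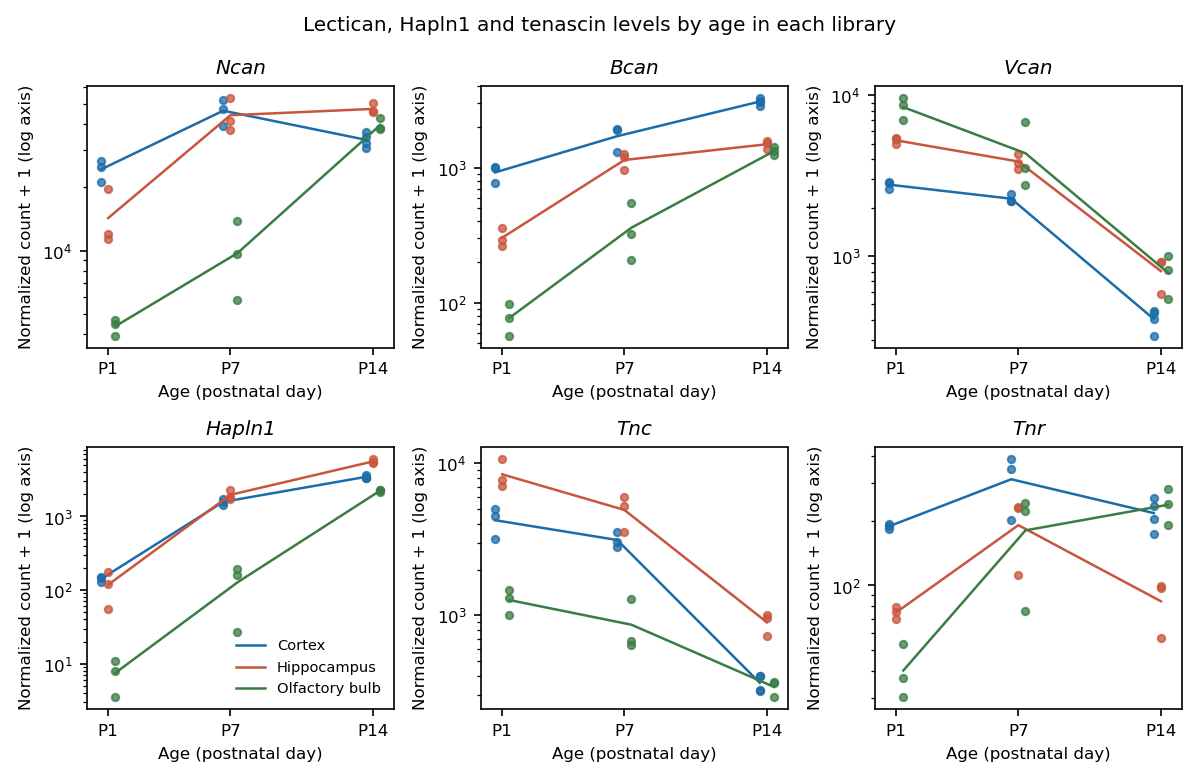
Normalized count + 1 on a log axis against age for 6 members, with a point for each library, a line through the group means and a colour for each region. Hapln1 is higher at each later age in all 3 regions (6.49 to 2236 from P1 to P14 in olfactory bulb), Vcan and Tnc end lowest at P14, and Ncan in cortex is highest at P7.

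Versican and tenascin-C shared a course in which most of the difference fell after P7. Versican is a large lectican of the embryonic and juvenile matrix. The 3 cortex libraries held 2870, 2845 and 2626 normalized counts of Vcan at P1 and 2208, 2194 and 2415 at P7, and the 4 at P14 held 318, 403, 453 and 443. In hippocampus the values were 5430, 4986 and 5332 at P1, 3802, 4317 and 3504 at P7, and 922, 913 and 577 at P14. In olfactory bulb they were 8680, 7028 and 9651 at P1, 2770, 3507 and 6804 at P7, and 817, 540.3 and 997 at P14. No library of a later age reached the lowest library of an earlier age. The P14 minus P1 difference was -2.79 (SE 0.11) in cortex, -2.74 (SE 0.17) in hippocampus and -3.46 (SE 0.31) in olfactory bulb. Only 10.4%, 16.2% and 30.4% of it, in that order, had come by P7.

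Tenascin-C is a hexameric glycoprotein of germinal zones and immature astrocytes. Tnc stood at 3187, 4486 and 5000 in the cortex libraries at P1, at 3513, 3054 and 2815 at P7, and at 318, 397, 321 and 398 at P14. The hippocampus values were 7727, 10615 and 7051 at P1, 3547, 6005 and 5255 at P7, and 1002, 961 and 731 at P14. In olfactory bulb Tnc was 1010, 1462 and 1306 at P1, 637, 1282 and 678 at P7, and 358, 288 and 365 at P14. P1 and P7 overlapped in cortex and olfactory bulb, while P14 lay below both earlier ages in each region. The P14 minus P1 difference was -3.54 (SE 0.15) in cortex, -3.23 (SE 0.21) in hippocampus and -1.89 (SE 0.25) in olfactory bulb. By P7 it had covered 11.7%, 24.5% and 31.7%.

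Neurocan, a secreted lectican and the member with the highest mean per kilobase in every group, ran a different course in each region. In cortex Ncan stood at 21245, 26746 and 25132 at P1, 47545, 52298 and 39469 at P7, and its 4 libraries of P14 held 30701, 34941, 32558 and 36774. The P7 libraries lay above all others, so that the level was highest in the middle of the series. In hippocampus it was 11936, 19570 and 11353 at P1, 37502, 41574 and 53447 at P7 and 50309, 46077 and 45705 at P14, with the last 2 ages overlapping. In olfactory bulb it was 3926, 4652 and 4483 at P1, 9608, 13761 and 5803 at P7 and 42759, 38248 and 37849 at P14, with no overlap between ages. The P14 minus P1 difference was 0.47 (SE 0.12) in cortex, 1.77 (SE 0.20) in hippocampus and 3.19 (SE 0.24) in olfactory bulb. For Ncan, among the most abundant genes of each library, quantile normalization turned the sign in 2 regions, giving -0.89 in cortex and -0.46 in hippocampus. The P14 minus P7 difference in cortex was -0.45 (SE 0.12), and -0.27 with TMM scaling.

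Brevican, a lectican of the mature matrix that is also found anchored to cell membranes, was higher at each later age in every region. The Bcan values were 767, 988 and 1009 in cortex at P1, 1919, 1900 and 1314 at P7, and 3289, 2855, 3082 and 3138 at P14. In hippocampus the mean (± SD, n = 3 each) was 302 ± 48.9 at P1, 1140 ± 155.8 at P7 and 1491 ± 109 at P14, and in olfactory bulb 76.01 ± 20.03, 359 ± 175 and 1326 ± 90.1. No library of a later age overlapped an earlier one in any region. The P14 minus P1 difference was 1.75 (SE 0.13) in cortex, 2.31 (SE 0.15) in hippocampus and 4.14 (SE 0.31) in olfactory bulb. In hippocampus 82.9% of it had come by P7, against 50.2% in cortex and 51.8% in olfactory bulb.

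Aggrecan, the core lectican of perineuronal nets, was barely detected. Acan read 0.757 to 9.28 normalized counts in the cortex libraries and 0 to 8.60 in olfactory bulb, from 0 to 20 reads. In hippocampus its libraries read 7.12, 5.79 and 16.0 at P1, 18.1, 23.8 and 27.4 at P7 and 4.30, 23.2 and 8.96 at P14. In each of the 3 regions the P7 libraries were above those of P1, from few reads.

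Tenascin-R, the trimeric crosslinker of lecticans that is made by oligodendrocyte lineage cells and some neurons, had its highest mean at P7 in cortex and hippocampus. Tnr was 188, 192 and 182 in cortex at P1, 201, 346 and 385 at P7, and 203, 255, 234 and 172 at P14. In hippocampus it was 69.1, 78.4 and 74.3 at P1, 228, 230.2 and 111 at P7, and 55.9, 95.9 and 98.5 at P14. In olfactory bulb it was 52.3, 36.1 and 29.2 at P1, 222, 242 and 74.8 at P7, and 280.3, 238 and 190.2 at P14. P14 overlapped P1 in cortex and hippocampus, with differences of 0.19 (SE 0.20) and 0.13 (SE 0.33), and did not in olfactory bulb, at 2.58 (SE 0.41). The summed level of 6 oligodendrocyte precursor markers was also highest at P7 in cortex and hippocampus. It was 1204 to 1292 at P1, 1638 to 2265 at P7 and 1048 to 1214 at P14 in cortex. Within cortex P7, replicate 3 had the highest Tnr (385) but the lowest sum (1638). For hippocampus the sum was 363 to 564, 1171 to 1588 and 926 to 1036. There it stayed above P1 at P14, where Tnr overlapped P1. In olfactory bulb that sum was 131 to 168, 536 to 1109 and 1176 to 1227. The part of these cells in the Tnr level was not tested.

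In olfactory bulb at P7, replicate 3 stood nearer to the P1 libraries than replicates 1 and 2 for 5 of the 6 members in the fit: it had the lowest Hapln1, Bcan, Ncan and Tnr of the 3 and the highest Vcan. For Tnc it read 678, between the other 2. Among the members too low for the fit it also had the lowest Acan (2.37 against 8.60 and 8.58) and Hapln3 (3.56 against 3.69 and 5.004, from 6 to 7 reads). The 7 astrocyte markers summed to 10068 in replicate 3 against 14401 and 18439, and the 6 oligodendrocyte precursor markers to 535.7 against 1109 and 1098. Their part in these levels was not tested.

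**Figure D2:**
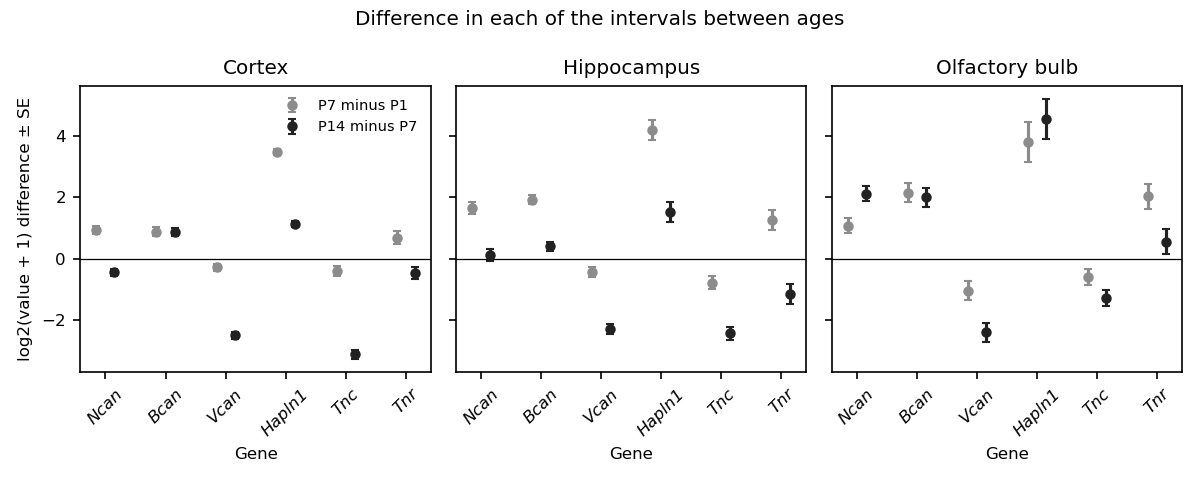
Difference of log2(value + 1) between successive ages with its standard error (limma) for 6 members in each region, grey for P7 minus P1 and black for P14 minus P7. For Vcan and Tnc the black points lie further below 0 than the grey ones in each region (-2.50 against -0.29 and -3.12 against -0.41 in cortex), while for Hapln1 the first interval is the larger one in cortex (3.48 against 1.13).

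The count of members past an adjusted p of 0.05 is given beside the share of all genes and read no further, because earlier age results were known when the members were chosen. In cortex 7 members had a mean of at least 10 and entered the fit (Acan, Hapln2 and Hapln4 did not). From P1 to P7, 4 of them were called higher and 0 lower, where 15.6% and 18.1% of all genes were. From P7 to P14 the counts were 2 and 3, against 18.6% and 31.3%, and from P1 to P14 3 and 2, against 24.0% and 40.3%. In hippocampus 8 members entered (not Hapln2 and Hapln4), with 4 higher and 1 lower from P1 to P7 (11.2% and 6.92% of genes), 1 and 3 from P7 to P14 (12.5% and 17.7%) and 3 and 2 from P1 to P14 (21.0% and 28.5%). In olfactory bulb 6 members entered (not Acan, Hapln2, Hapln3 and Hapln4), with 4 and 0 (7.59% and 2.98%), 3 and 2 (20.4% and 26.6%) and 4 and 2 (24.8% and 31.4%) in the same order. At an unadjusted limma p under 0.05 in either direction, 6 members passed from P1 to P7 in cortex, where 5180 of 11822 genes did, and 6 in olfactory bulb, where 2749 of 11490 genes did; these are the intervals in which 0 were called lower. The median P14 minus P1 difference of all genes was -0.27 in the cortex fit, -0.29 in the hippocampus fit and -0.24 in the last; the tested members had medians of 0.19, 0.17 and 2.89.

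Per kilobase of exon, by which levels of different genes were set side by side, neurocan had the highest mean of the family in every group. The length is the union of all exons of a gene, which can exceed that of the transcripts present. In cortex at P7 its level of 6454 ± 901 per kb (SD, n = 3) was the 5th highest of 23350 genes with a length, and in hippocampus at P7 its 6140 ± 1152 was the 4th. In olfactory bulb at P1, Ncan at 605 ± 52.8 per kb and Vcan at 585 ± 91.7 did not differ beyond their spread. As normalized counts Vcan was the higher in that group (8453 ± 1326 against 4354 ± 380), so the order depends on the lengths used. There Ncan made up 50.2% ± 4.97 and Vcan 48.3% ± 5.41 of the summed lectican level. By P14 the shares in olfactory bulb were 93.5% ± 0.66 for Ncan and 0.923% for Vcan. In cortex Ncan already held 88.9% ± 0.51 at P1 and Vcan 5.10%, and at P14 the Bcan share had gone from 5.94% to 13.9% while that of Vcan was 0.509%. Acan held at most 0.0587% on average in any group. Among the tenascins, the Tnc share in cortex went from 97.3% at P1 to 73.2% at P14. The same share was 99.5% and then 94.5% in hippocampus, and olfactory bulb had 98.1% and then 70.2%.

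**Figure D3:**
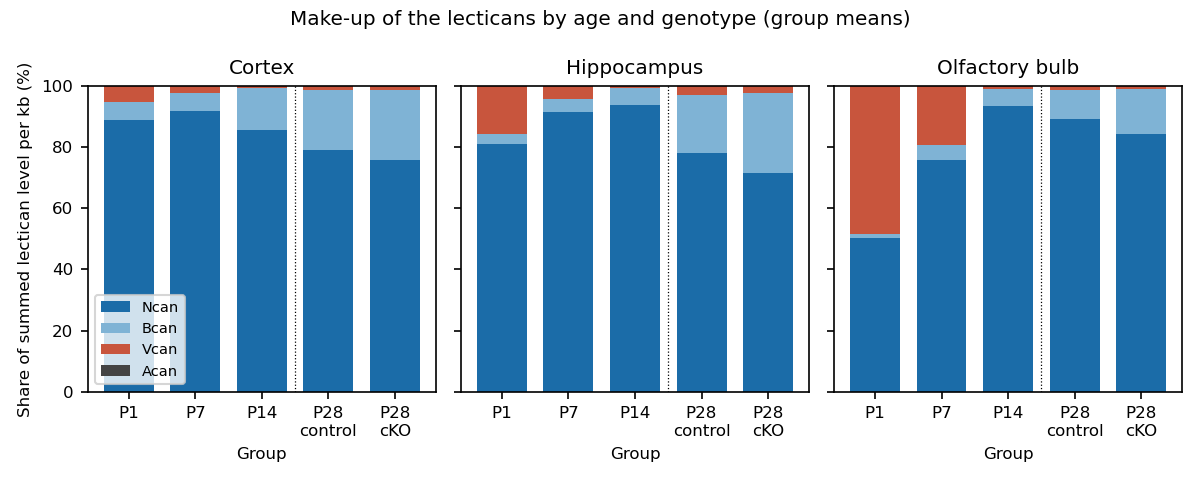
Share of the summed lectican level per kilobase held by Ncan, Bcan, Vcan and Acan, as group means for each age and genotype in each region; the dotted line separates tables that were scaled apart. In olfactory bulb Vcan goes from 48.3% at P1 to 0.923% at P14, and Acan is too low to be seen.

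Each link protein gene lies near a lectican gene in the genome (GENCODE M21, GRCm38). No gene among the symbols measured here lies wholly between them. Annotated genes without a measured level were not searched. Hapln1 (chr13:89539796-89611652, plus strand) and Vcan (chr13:89655312-89742509, minus strand) point towards each other across 43659 bases, and their levels went in opposite directions with age in all 3 regions. Hapln2 (chr3:88021750-88027583) and Bcan (chr3:87987531-88000230) lie 21519 bases apart on the minus strand, where Bcan was called higher with age and Hapln2 stayed at 0 to 5 reads. Hapln4 (chr8:70083457-70090862, plus strand) ends 2222 bases from the end of Ncan (chr8:70093085-70120873, minus strand), and the same contrast of a few reads for the link protein against an abundant lectican held there. Hapln3 (chr7:79115102-79131018, minus strand) and Acan (chr7:79053483-79115099, plus strand) have only 2 bases between their ends. Whether the counting used strand is not given in the sources used here, so reads past the end of either may have been counted for the other. The remaining members were Tnc (chr4:63959785-64047015, minus strand) and Tnr (chr1:159523769-159931729, plus strand).

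The genes whose log2 levels ran most like each member over the libraries of a region (Pearson's r averaged over the 3 regions, n = 10, 9 and 9 libraries, 10442 genes compared) were named by rule, as a description; libraries of a region share age and table. Hapln1 ran most like Gpr37l1, an orphan receptor of astrocytes (mean r 0.991), then Abhd3 (0.989) and the glypican Gpc5 (0.988). Bcan ran most like Epas1 (0.983), the lipid carrier Apoe (0.982) and Baalc (0.981). Ncan ran most like the endothelin receptor Ednrb (0.974), Specc1 (0.972) and Ptprz1 (0.969), a receptor phosphatase that tenascins are known to contact. Vcan ran most like Nav1 (0.980), Dicer1 (0.968) and Slc38a2 (0.966), and Tnc most like Nav1 (0.954), Vcan itself (0.954) and Adamts3 (0.942). For Tnr the closest were Vps13a (0.779), the oligodendrocyte lineage factor Olig2 (0.776) and Lrig1 (0.768). Between members, r of Vcan with Tnc was 0.987 in cortex, 0.978 for hippocampus and 0.896 for olfactory bulb, and r of Bcan with Ncan 0.497, 0.976 and 0.976 in that order, lowest for cortex, where Ncan was highest at P7.

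The genes that make, bind or cut this matrix were followed in lists that hold no member; these lists, too, were written with earlier results known. The counts below are genes past an adjusted p of 0.05 (limma, Benjamini-Hochberg over all genes) from P1 to P14. Of the hyaluronan genes, 1 of 9 tested rose and 4 fell in cortex, 1 of 7 rose and 5 fell in hippocampus, and 1 of 8 rose and 1 fell in olfactory bulb; the list's median differences were -1.69, -2.97 and -0.52. The gene that rose was Hyal1, a lysosomal hyaluronidase, in all 3 regions, from 29.5 ± 11.3 to 142.3 ± 9.34 normalized counts in cortex (SD, n = 3 and 4; log2 difference 2.30, SE 0.22, limma adjusted p = 9.2e-07). Has2, a hyaluronan synthase, fell by 6.41 on the log2 scale in hippocampus (SE 1.24), from 350.4 ± 57.3 to 22.4 ± 38.8. Tmem2, a membrane protein reported to cut hyaluronan, fell by 5.63 in hippocampus (SE 0.81) and by 3.23 in olfactory bulb (SE 0.52).

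Of the genes of chondroitin sulfate synthesis, 2 of 18 tested rose and 4 fell in cortex, 3 of 17 rose and 6 fell in hippocampus, and 3 of 19 rose and 3 fell in olfactory bulb, with medians of -0.09, -0.77 and -0.24. Csgalnact1, which starts the chondroitin chain, rose by 1.90 (SE 0.15), 4.67 (SE 0.27) and 3.51 (SE 0.28) in the 3 regions in that order. Chst11, a chondroitin 4-sulfotransferase, rose by 2.08 (SE 0.13), 1.54 (SE 0.29) and 1.77 (SE 0.23). Chst3, a 6-sulfotransferase, fell by 2.01 in cortex (SE 0.28) and by 2.63 in hippocampus (SE 0.65), and Chst15, which makes the disulfated E unit, fell by 2.16 (SE 0.34) and by 4.36 (SE 0.81). The falls rest on low levels, at most 15.9 normalized counts on average at P14 for these genes.

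Of the matrix proteases and their inhibitors, 4 of 13 tested rose and 4 fell in cortex, 3 of 12 rose and 3 fell in hippocampus, and 5 of 13 rose and 2 fell in olfactory bulb, with medians of 0.18, 0.22 and 0.60. Timp4, a metalloproteinase inhibitor, rose by 2.98 (SE 0.13), 3.55 (SE 0.26) and 7.10 (SE 0.40), in olfactory bulb from at most 6 reads per library. Timp3, a matrix-bound inhibitor, rose from 151.8 ± 24.6 to 3247 ± 331 in olfactory bulb (n = 3 each; log2 difference 4.42, SE 0.20, limma adjusted p = 5.6e-08). Adamts5, a protease that cuts lecticans, rose by 2.41 in cortex (SE 0.21), and Mmp16, a membrane-type metalloproteinase, fell by 1.91 in cortex (SE 0.21) and by 1.503 in olfactory bulb (SE 0.18).

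Of the receptors and binding partners, 8 of 19 tested rose and 7 fell in cortex, 10 of 20 rose and 6 fell in hippocampus, and 8 of 20 rose and 3 fell in olfactory bulb. Syndecan 4 (Sdc4) rose by 4.21 (SE 0.19), 5.78 (SE 0.23) and 5.89 (SE 0.35). The microfibril gene Fbn2, whose product versican is known to bind, fell by 4.30 (SE 0.39), 3.53 (SE 0.45) and 2.75 (SE 0.29) in the same regions. Among other brain proteoglycans and tenascins, 7 of 15 tested rose and 4 fell in cortex, 9 of 14 and 4 in hippocampus, and 9 of 15 and 2 in olfactory bulb, with medians of 0.77, 1.39 and 1.64. The glypican Gpc5 rose by 4.19 (SE 0.12), 7.49 (SE 0.26) and 4.80 (SE 0.31), and the testican Spock1 fell by 3.16 (SE 0.32), 3.64 (SE 0.51) and 3.42 (SE 0.91). The shares of all genes called in each region were those given above for P1 to P14.

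The cKO was checked first. Gabbr1 stood at 927 to 1930 normalized counts in the 4 cortex controls and at 89.8 to 211 in the 4 cKO libraries, at 780 and 824 against 151.7 to 380 in hippocampus, and at 184 to 318 against 63.6 to 99.5 in olfactory bulb. No cKO library overlapped a control in any region. In the limma fit the cortex difference of -3.45 (SE 0.29) had an adjusted p of 4.4e-05, and Gabbr1 was the only gene that limma called in the 3 genotype comparisons. The hippocampus and olfactory bulb differences of -1.84 (SE 0.39) and -1.48 (SE 0.33) had adjusted p of 0.936 and 0.877.

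No member passed the adjusted threshold between cKO and control in any region. In cortex 0 of 6 members were called by limma, against 0.00982% of all genes, in hippocampus 0 of 6 against 0.0% and in olfactory bulb 0 of 7 against 0.0%. edgeR and DESeq2 on the recovered reads also called 0 members in each region. Over all genes, edgeR called 1, 0 and 0 and DESeq2 1, 1 and 22 in cortex, hippocampus and olfactory bulb. DESeq2 was run with its default filtering, which can leave genes without an adjusted p. Each tool was given 10188, 11639 and 11539 genes in these regions, in that order. At an unadjusted p under 0.05, limma counted 221, 296 and 349 of them, and 0, 2 and 0 members. By the same threshold edgeR counted 226, 312 and 564 genes and 0, 2 and 1 members. DESeq2 counted 247, 498 and 623 genes and 0, 2 and 2 members. Those of olfactory bulb were Vcan by edgeR, and Vcan and Ncan by DESeq2.

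Those of hippocampus were Bcan and Hapln1 by each tool. Bcan read 668 and 884 in controls against 1508, 2597, 1167 and 1516 in cKO libraries, a difference of 1.08 (SE 0.35, limma adjusted p = 0.936). Hapln1 read 852 and 1172 in controls and 1425, 3968, 1524 and 1994 in cKO libraries, a difference of 1.03 (SE 0.42, limma adjusted p = 0.936). Every cKO library lay above both controls for both genes, as it did for 7.08% of all genes, and every cKO library lay below for 7.92% and 0 of the 6 members. The exact two-sided permutation test gave p = 0.133 for each, the smallest that 2 against 4 libraries allow. Replicate 2 of the cKO, which has few Rn45s reads, was the highest for both; without it the differences were 0.85 and 0.71, and the other 3 still lay above both controls. Over 17 alternatives the lowest adjusted p was 0.777 for Bcan and 0.84 for Hapln1. The same cKO libraries also lay above both controls in the summed levels of 4 mural markers (239 to 297 against 114 and 176) and 5 endothelial markers (139 to 415 against 114 and 128). They did so for 6 microglial markers too (59.1 to 527 against 45.4 and 52.4), of which 2 were above the floor in both controls. The astrocyte sums were 151850 and 165190 in controls and 226590, 361190, 171900 and 116330 in cKO 1 to 4. They overlapped through cKO 4 alone, which lay below both controls. Library cKO 4 had the highest library number in hippocampus, within the range of the 3 cortex libraries that list tamoxifen. Rn45s took 28.6% of its level, against 37.1% and 38.0% in controls and 35.4% and 38.0% in cKO 1 and 3. Those 3 cortex libraries read higher for Hapln1 than the other 5, at 2295 to 2691 against 1350 to 1892. The part of these sums, of library number and of the Rn45s share in the 2 differences was not tested.

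The remaining members of hippocampus overlapped between genotypes. Ncan read 5466 and 5807 in controls and 6431, 31809, 5412 and 4380 in cKO libraries, with a difference of 0.57 (SE 0.70) that became -0.08 without cKO 2. Vcan, Tnc and Tnr differed by 0.18 (SE 0.33), 0.51 (SE 0.40) and 0.03 (SE 0.35), with exact permutation p of 0.8, 0.4 and 0.933 (n = 2 and 4). Without cKO 2 they differed by 0.0729 (SE 0.27), 0.59 (SE 0.35) and -0.0542 (SE 0.30).

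In cortex every member overlapped between genotypes, where 0.864% of all genes lay higher and 1.03% lower in all cKO libraries. Hapln1 read 1454, 1721, 2295 and 2401 in controls and 1350, 1697, 1892 and 2691 in cKO libraries, a difference of -0.06 (SE 0.23; 2 SE either side, -0.52 to 0.40). Bcan differed by 0.14 (SE 0.22), Ncan by -0.16 (SE 0.21), Vcan by -0.25 (SE 0.38) and Tnc by 0.39 (SE 0.35). Tnr read 73.96, 33.9, 132 and 181 in controls and 1.12, 23.1, 76.7 and 174 in cKO libraries, a difference of -1.63 (SE 0.98) in which cKO 1 rests on 1 read. The exact permutation p ran from 0.314 for Tnr to 0.857 for Hapln1, where 4 against 4 libraries allow 0.0286.

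The 3 cortex libraries that list tamoxifen (controls 3 and 4 and cKO 4) stood above the other 5 for 5 of the 10 members, whatever the genotype. Vcan was 377 to 457 in these 3 and 134 to 306 in the 5, Hapln1 2295 to 2691 and 1350 to 1892, Tnc 128 to 201 and 50.2 to 123, and Tnr 132 to 181 and 1.12 to 76.7. Hapln2 was 5.53 to 10.96 and 0 to 3.17, at most 10 reads. Of the 10188 genes in the fit, which held 6 members, 7.48% lay higher in this way and 9.14% lower. Of the 5 members named, all but Hapln2 were in that fit. The same 3 libraries had the higher summed levels of mature oligodendrocyte markers (8387 to 14275 against 2730 to 5959) and microglial markers (479 to 1275 against 85.2 to 138) and the lower astrocyte sums (135360 to 192220 against 215610 to 280950); the part of these was not tested. Within the 5 libraries without tamoxifen listed, the cKO minus control difference of mean log2 levels was -0.02 for Vcan, 0.04 for Hapln1, 0.74 for Tnc and -1.69 for Tnr, and within the 3 it was 0.17, 0.20, 0.48 and 0.17, from 1 cKO library. For Tnr the sign thus differed between the 2 sets, and the former value includes the library with 1 read.

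In olfactory bulb no member separated the genotypes, where 5.3% of all genes lay higher and 4.71% lower in all cKO libraries. Ncan read 19997, 48782 and 15009 in controls and 15710, 14941 and 17409 in cKO libraries, a difference of -0.61 (SE 0.38) that was -0.12 (SE 0.19) without control 2. Vcan read 447, 1932 and 374 in controls and 359, 380 and 321 in cKO libraries, a difference of -0.96 (SE 0.51) that was -0.21 (SE 0.21) without control 2. In both cases control 2, the library with few Rn45s reads, was the highest, and it had the lowest Tnr (57.9 against 158.3 to 210.1). The same library read 42.6 for Hapln4, whose other 5 values were 0 to 7.57, and Hapln4 entered the fit through it alone, with a difference of -0.46 (SE 1.46). Control 2 also held the highest neuronal sum (1925 against 555 to 1280 in the other 5); its part was not tested. Bcan differed by 0.19 (SE 0.21), Hapln1 by 0.32 (SE 0.23), Tnc by 0.05 (SE 0.36) and Tnr by 0.30 (SE 0.45), the last 2 with the sign turned without control 2 (-0.27 and -0.29). Without it Bcan differed by 0.31 (SE 0.18) and Hapln1 by 0.33 (SE 0.22). The exact permutation p ran from 0.2 for Bcan and Vcan to 1.0 for Tnr, where 3 against 3 libraries allow 0.1.

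**Figure D4:**
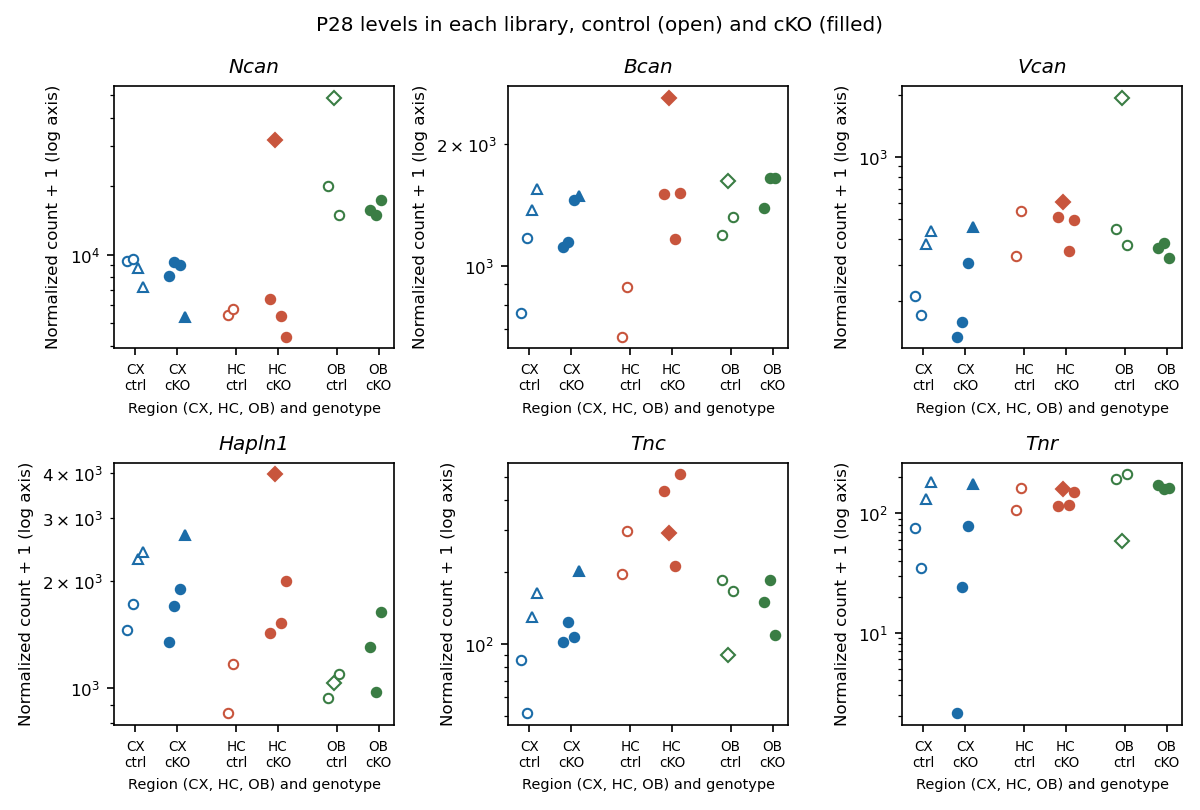
Normalized count + 1 on a log axis for 6 members in each P28 library, control open and cKO filled, by region (CX cortex, HC hippocampus, OB olfactory bulb); triangles are the cortex libraries that list tamoxifen and diamonds the 2 libraries with few Rn45s reads. In hippocampus all 4 cKO points of Bcan (1167 to 2597) and Hapln1 (1425 to 3968) lie above both controls, and the triangles of Vcan, Hapln1, Tnc and Tnr lie above the other cortex points.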

How the data were processed

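RNA-seq levels of 24421 gene symbols in 48 mouse libraries were read from 6 deposited tables, 1 per region for P1 to P14 and 1 per region for P28. The deposited values are a signal, normalized counts that the authors scaled by a factor for each library. Dividing by that step returned whole reads for 100.0% of values (tolerance 0.01, widened in proportion to the reads for abundant genes). For the most abundant genes that tolerance is too wide for a check. For olfactory bulb cKO 2 the step is too near 1 for the division to be a check. A low-input total RNA kit was used on dissociated tissue, per the labels' protocols. The submitters' processing notes name FastQC, MultiQC, STAR 2.5.0a, DESeq2 1.20.0 and the build mm10; the counting program, its strand setting and the annotation are not given in the sources used here.

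Levels were tested as log2(value + 1) with limma 3.58.1 (trend) on genes with a table mean of at least 10, with Benjamini-Hochberg adjustment over all genes and a threshold of 0.05; the 3 ages of a region shared a fit. Shares of all genes are over the genes with that table mean. For low genes, a difference of mean log2(value + 1) can be smaller or larger than the log2 ratio of the group means. It can be larger where single libraries of a group lie near 0. Single values were also compared by an exact two-sided permutation test over libraries (scipy 1.17.1). edgeR 4.0.16 and DESeq2 1.42.0 on the recovered reads, other pseudocounts, filters and scalings, and leaving out libraries were alternatives. The script for the fit was tested on simulated data. Lengths per kilobase are exon unions of GENCODE M21, found for 23350 symbols.

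The members, the matrix lists and the marker lists were chosen with earlier results of these data known. Named genes are all members, Gabbr1 and, from each list and region, at most 2 rises and 2 falls from P1 to P14 with libraries that do not overlap; a part of those named by that rule is printed. Marker levels of the 8 cell type lists are printed beside some results, whether or not the levels moved together.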

Additional observations from a re-analysis of the deposited data

Results flagged for a closer look

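Among 25 groups of a member and 4 or more libraries, Ncan in hippocampus cKO replicate 2 stood apart: it read 31809 normalized counts, and the other 3 cKO libraries 4380 to 6431. Its gap to the nearest library was 0.925 of the group's range, above the 95% critical value for 4 libraries, which chance passes in about 1 of 20 groups. This is the library in which Rn45s took 0.594% of the level.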

How the results depend on the processing

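The differences of Hapln1, Bcan, Vcan and Tnc from P1 to P14 kept their direction in all 3 regions under every alternative run; of 1603 member values recomputed under alternatives, 1498 kept direction and side of the threshold and 50 changed sign, which for values past the threshold happened to Ncan alone, under quantile normalization. Quantile normalization turned Ncan to -0.11 (P7 minus P1) and -0.89 (P14 minus P1) in cortex and to -0.56 and -0.46 in hippocampus. It also turned Hapln3 to 0.13 (P14 minus P7) in cortex and to -0.45 (P7 minus P1) and 1.60 (P14 minus P7) in hippocampus, and Bcan to -0.0301 (P14 minus P7) in hippocampus. The hippocampus P14 minus P7 difference of Hapln3 was also positive with a pseudocount of 8 (0.0633), TMM (0.0129), median-ratio scaling (0.0365), edgeR (0.29) and DESeq2 (0.30). With label style as a covariate, the cortex cKO differences were 0.0459 for Vcan and 0.0983 for Hapln1. In hippocampus Tnr was -0.001 with edgeR, and without the library low in Rn45s it was -0.0542 and Ncan -0.0768. In olfactory bulb Hapln4 was 0.39 with a pseudocount of 0.1, and without the library low in Rn45s Tnc was -0.27 and Tnr -0.29. Leaving out each library in turn gave Hapln3 -0.21 to 0.32 (cortex P14 minus P1), -0.48 to 0.59, -0.57 to 0.72 and -0.50 to 0.92 (hippocampus P7 minus P1, P14 minus P7 and P14 minus P1), Acan -0.43 to 0.66 and Tnr -0.0114 to 0.39 (hippocampus P14 minus P1). For the cKO it gave, in cortex, Bcan -0.0717 to 0.27, Vcan -0.57 to 0.0172, Hapln1 -0.24 to 0.0905 and Ncan -0.25 to 0.0155; in hippocampus, Vcan -0.18 to 0.54, Tnr -0.28 to 0.33 and Ncan -0.0768 to 0.88; and in olfactory bulb, Tnc -0.27 to 0.26, Tnr -0.29 to 0.63 and Hapln4 -1.89 to 0.0082. The cause was not tested for any of these. Members called from P1 to P7 ran from 3 to 6 in hippocampus (5 with all libraries, 3 without P7 replicate 1) and from 2 to 5 in olfactory bulb (4 with all, 2 without P7 replicate 1). A table mean of at least 100, which tests fewer genes, left 0, 2 and 1 hyaluronan genes called from P1 to P14 in cortex, hippocampus and olfactory bulb (5, 6 and 2 with the filter of 10), 2, 3 and 2 of chondroitin sulfate synthesis (6, 9 and 6), 5 proteases and inhibitors in cortex and 4 in olfactory bulb (8 and 7), and 8 and 7 other proteoglycans in hippocampus and olfactory bulb (13 and 11). With only the 2 ages compared, which leaves fewer libraries, 5 and 3 genes of chondroitin sulfate synthesis were called in hippocampus and olfactory bulb, and leaving out a library gave 5 to 11 and 3 to 6; without hippocampus P1 replicate 1 or 2 the count was 5, and without any of the 3 olfactory bulb P1 libraries 3. No paired analysis was possible because the labels give no replicate number shared between groups.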
